A study of Mus musculus with 12 samples.

Results

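The data described here are those of 4 genes of early red cell development, the transcription factor genes Klf1, Gata1 and Gfi1b and the gene of the erythropoietin receptor, Epor, in bone marrow KSL cells of irradiated and non-irradiated mice. They were chosen from the table of changed probe sets that the authors deposited, as the rows that name these genes, and each gene had 1 such row. They are 4 of the 325 genes that the table names alone, and the table lists a probe set only if its mean changed at least 2-fold between the groups, at an unadjusted p of at most 0.0496. That these genes are higher after irradiation is therefore part of how they were chosen. Their differences between the groups are given as a description, with no test.

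KSL cells are sorted bone marrow cells that carry Kit and Sca-1 and lack lineage markers, and blood stem cells and multipotent progenitors are among them. The control group was 6 arrays of KSL cells from non-irradiated C57Bl/6 mice (0 cGy), and the irradiated group was 6 arrays of KSL cells from C57Bl/6 mice given 550 cGy from a cesium source. Mice of both groups were raised to 10 weeks of age, and the cells were taken at day 14 after irradiation according to the series' design, which asks how regenerating stem cells differ from those at steady state. The labels do not say whether an array holds 1 mouse or a pool, so the spread between arrays may be technical. The sort markers could not be checked, since Kit and Ly6a (the gene of Sca-1) had no probe set named in the files used here. All values are log2 expression values of 22626 probe sets, with array medians from 6.94 to 7.01. Precision is limited by the spread between arrays and by how many arrays there are.

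GATA1 is a zinc finger factor that binds GATA motifs and is needed for red cell, megakaryocyte and mast cell development. KLF1, a Krüppel-like factor, binds CACCC motifs and turns on globin, heme synthesis and red cell membrane genes, and GFI1B is a zinc finger repressor of erythroid and megakaryocytic cells. The erythropoietin receptor signals through the kinase JAK2 and the factor STAT5 to keep erythroid progenitors alive and dividing.

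Because KLF1 and GATA1 are DNA-binding factors, the promoters of all 4 genes are shown, with the motifs of these factors marked. The windows are from RefSeq (GRCm38.p6), run from 250 bases before to 50 bases after the gene start, and are read 5′ to 3′ on the gene's strand. Capitals mark a GATA motif (GATA with A or T before it and A or G after it) or the motif CACCC, searched on both strands. The windows are chr8:84901732-84902031 on the plus strand for Klf1, chrX:7967861-7968160 on the minus strand for Gata1, chr2:28621933-28622232 on the minus strand for Gfi1b and chr9:21963527-21963826 on the minus strand for Epor.
Klf1: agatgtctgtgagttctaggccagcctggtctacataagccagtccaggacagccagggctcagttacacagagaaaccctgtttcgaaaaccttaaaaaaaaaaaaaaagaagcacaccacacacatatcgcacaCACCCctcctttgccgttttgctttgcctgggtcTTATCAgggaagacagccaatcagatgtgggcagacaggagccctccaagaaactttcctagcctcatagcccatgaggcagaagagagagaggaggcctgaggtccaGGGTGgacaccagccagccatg
Gata1: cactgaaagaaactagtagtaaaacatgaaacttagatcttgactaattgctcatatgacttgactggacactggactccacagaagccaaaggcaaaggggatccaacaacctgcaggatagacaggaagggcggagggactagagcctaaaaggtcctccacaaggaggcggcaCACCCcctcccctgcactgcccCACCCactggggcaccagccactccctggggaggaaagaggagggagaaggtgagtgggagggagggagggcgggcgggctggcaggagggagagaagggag
Gfi1b: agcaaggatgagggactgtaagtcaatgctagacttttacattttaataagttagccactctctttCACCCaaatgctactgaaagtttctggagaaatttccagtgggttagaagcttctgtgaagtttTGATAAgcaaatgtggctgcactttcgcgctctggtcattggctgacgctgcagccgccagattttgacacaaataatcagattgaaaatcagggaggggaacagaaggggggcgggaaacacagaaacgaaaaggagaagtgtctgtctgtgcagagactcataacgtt
Epor: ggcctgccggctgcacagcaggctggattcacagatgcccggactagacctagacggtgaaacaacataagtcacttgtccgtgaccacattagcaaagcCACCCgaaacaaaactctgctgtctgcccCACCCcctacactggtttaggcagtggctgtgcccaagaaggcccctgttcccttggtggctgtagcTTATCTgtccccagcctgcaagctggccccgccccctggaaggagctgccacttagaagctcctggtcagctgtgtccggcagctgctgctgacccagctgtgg

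A GATA motif was found in 3 of the 4 windows and CACCC in all 4. The GATA motif began 80 bases before the start in Klf1, 120 before it in Gfi1b and 54 before it in Epor, and in Klf1 and Epor it lay on the opposite strand. The Gata1 window held 2 CACCC matches, 74 and 52 bases before the start, and Klf1 and Epor also held 2 each. Among all 32851 RefSeq promoter windows of this length, 29.8% held the GATA motif, 57.5% held CACCC and 14.9% held both. A STAT palindrome (TTC and GAA around 3 bases) was found in 1 window, that of Gfi1b, 133 bases before the start, and in 8.30% of all windows. The GFI1 core motif AAATC was also found in that of Gfi1b alone among the 4, against 35.9% of all windows, and its 2 matches do not overlap the marked motifs. Of the 45 genes of the list of red cell genes described with the values, 31 had a window, and 19 of these (61.3%) held the GATA motif and 24 (77.4%) CACCC, beside 33.0% and 59.8% of all genes with a window. The STAT palindrome was found in 0 of the 31 and the GFI1 core in 8 (25.8%), beside 9.55% and 39.3% of all genes. A match describes these letters and says nothing of binding.

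Klf1 differed most between the groups. Its log2 values ran from 5.04 to 8.12 in the control arrays, with a median of 7.34, and from 9.16 to 10.58 in the irradiated arrays, with a median of 10.03. The groups did not overlap, and the lowest irradiated array lay 1.04 above the highest control array. The group means were 7.10 ± 1.09 and 9.89 ± 0.60 (SD, n = 6 each), a log2 difference of 2.79 (SE 0.45) or 6.92-fold, the 4th largest rise among all 22626 probe sets. The control spread owes much to replicate 1, at 5.04. Without that array the control mean was 7.51 ± 0.44 (SD, n = 5) and the difference 2.38, or 5.20-fold.

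Gata1 had the smallest standard error of the 4 genes. Its control arrays ran from 6.59 to 7.78 (median 7.27) and its irradiated arrays from 8.35 to 9.41 (median 8.96). Again the groups did not overlap, here with a gap of 0.57. The means of 7.25 ± 0.40 and 8.86 ± 0.38 (SD, n = 6 each) differed by 1.61 on the log2 scale (SE 0.20), or 3.06-fold.

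Epor, the one receptor among these genes, was 3.51-fold higher. The control arrays ran from 5.46 to 7.18 (median 6.67) and the irradiated arrays from 7.19 to 8.99 (median 8.56). The groups met without overlapping, since irradiated replicate 3 was only 0.01 above control replicate 5. The means were 6.49 ± 0.60 and 8.31 ± 0.73 (SD, n = 6 each), a log2 difference of 1.81 (SE 0.34).

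Gfi1b showed the smallest of the 4 changes and the only overlap. The control arrays ran from 8.90 to 10.60 (median 9.69) and the irradiated arrays from 10.41 to 11.19 (median 10.82), so that 2 irradiated arrays did not exceed the highest control array. The means of 9.76 ± 0.63 and 10.83 ± 0.32 (SD, n = 6 each) differed by 1.07 on the log2 scale (SE 0.26), or 2.09-fold. This gene lies nearest to the 2-fold limit of the table from which the genes were chosen, where the lowest ratio of a higher probe set is 2.00 in the authors' deposited table. Any probe set of these genes that changed by less carries no name here.

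All 4 probe sets were higher at a limma adjusted p under 0.05, against 5.87% of all probe sets, and the groups did not overlap for 3 of the 4, against 3.00% of all. Nothing is read from these counts, since the genes were chosen on this difference. In RNA of sorted cells, more cells of an erythroid kind and more of these transcripts per cell cannot be told apart. The sort was for lineage-negative, Sca-1-positive cells, and its markers could not be checked here.

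**Figure D1:**
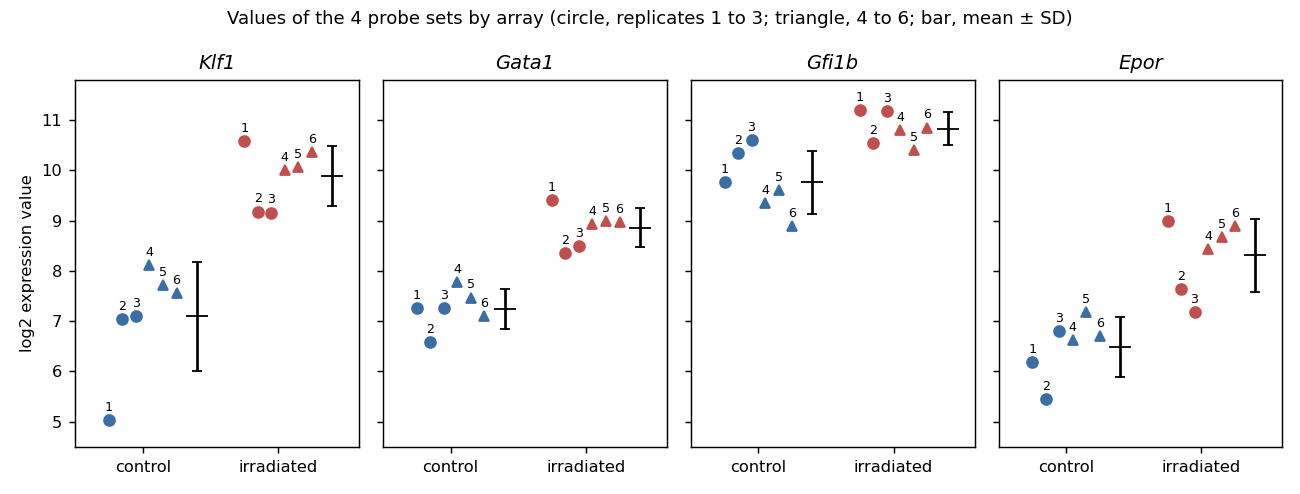
Log2 value of each of the 4 probe sets (y axis) in each array, with control arrays in blue and irradiated arrays in red. Numbers are replicate numbers, and black bars give the mean ± SD of 6 arrays. Klf1 in control replicate 1 stands at 5.04, and Gfi1b is the gene whose groups overlap.

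The arrays were not ordered alike by the 4 genes. Among irradiated arrays, replicate 1 was highest for all 4 genes, and replicates 2 and 3 were the lowest pair for Klf1, Gata1 and Epor. For Gfi1b, irradiated replicate 3 was second highest, at 11.18. Among control arrays, replicate 4 was highest for Klf1 and Gata1 and replicate 5 for Epor, while Gfi1b was highest in replicates 3, 2 and 1, at 10.60, 10.34 and 9.77. These are the control arrays in which Klf1 was lowest, at 7.11, 7.05 and 5.04.

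Earlier results of these arrays had shown that replicates 1 to 3 and 4 to 6 stand apart across the whole table, a split that the labels do not name as a batch. The change of each gene was therefore set out within each set of 3 control and 3 irradiated arrays. For Klf1 it was 3.24 in the first set and 2.34 in the second, or 9.44-fold and 5.07-fold. For Gata1 it was 1.71 and 1.52, or 3.27-fold and 2.86-fold, and for Epor 1.79 and 1.84, or 3.46-fold and 3.57-fold. For Gfi1b it was 0.74 and 1.40, or 1.66-fold and 2.64-fold, so that only the second set reached 2-fold. The sets thus give Klf1 and Gfi1b opposite orders, Klf1 with its larger change in replicates 1 to 3 and Gfi1b in replicates 4 to 6, though for Klf1 this rests largely on replicate 1.

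How the change differs between the sets was not itself a criterion in choosing the genes. The limit on unadjusted p favoured probe sets with little spread within groups, and such a difference adds to that spread. The choice was thus not wholly free of it. The difference was tested in limma with an interaction term over all probe sets. The change in replicates 4 to 6 minus that in 1 to 3 was -0.90 for Klf1 (SE 0.73, adjusted p = 0.688; -0.21 without control replicate 1 and -0.43 without irradiated replicate 1) and 0.66 for Gfi1b (SE 0.36, adjusted p = 0.526). It was -0.19 for Gata1 (SE 0.40, adjusted p = 0.903) and 0.05 for Epor (SE 0.60, adjusted p = 0.988). None of the 4 passed, beside 0.133% of all probe sets (30 of them, and 2585 at an unadjusted p under 0.05). That count ran from 4 (without control replicate 4 or irradiated replicate 4 or 6) to 129 (without irradiated replicate 3) with 1 array left out. With errors of this size, differences of the size seen for Klf1 and Gfi1b were not detectable in these arrays.

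The level in the control arrays was compared between the sets in the same limma fit. Because the split itself was seen on these arrays, these values describe how the 4 genes lie along it and are no independent test of it. Gfi1b was 10.24 ± 0.42 in control replicates 1 to 3 and 9.29 ± 0.36 in control replicates 4 to 6 (SD, n = 3 each), a difference of -0.95 (SE 0.26, limma adjusted p = 0.0442). This call ended when control replicate 2, 3, 4, 5 or 6 or irradiated replicate 4, 5 or 6 was left out, at adjusted p of 0.0553 to 0.151. Klf1 went the other way, from 6.40 ± 1.18 to 7.80 ± 0.29 (difference 1.40, SE 0.52), and missed the threshold at a limma adjusted p of 0.124. Without control replicate 1 the Klf1 difference was 0.72. Gata1 and Epor differed by 0.40 (SE 0.28, limma adjusted p = 0.420) and 0.69 (SE 0.43, limma adjusted p = 0.361). Of all probe sets, 8.40% differed between the control sets, with 3.26% lower in replicates 4 to 6 as Gfi1b was, so the count of 1 in 4 genes stands beside that background. The 1900 probe sets behind this share were 803, 695 and 792 without control replicate 4, 5 and 6. In the irradiated arrays 1.06% of all probe sets differed between the sets, and the 4 genes, at -0.29 to 0.74, did not pass (limma adjusted p = 0.411 to 0.756).

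**Figure D2:**
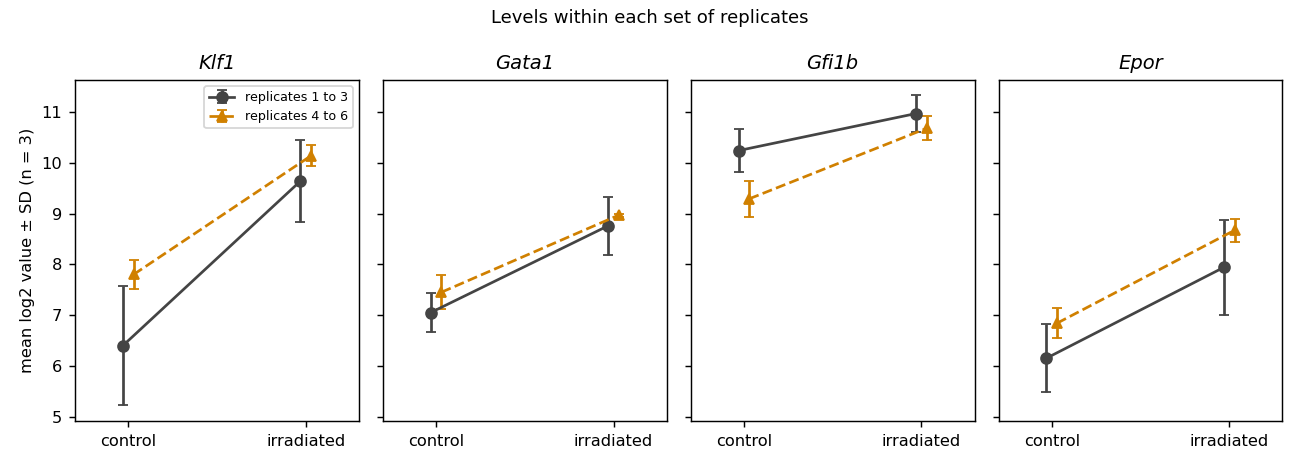
Mean log2 value ± SD (y axis, n = 3 arrays) of each gene in control and irradiated arrays, drawn apart for replicates 1 to 3 and 4 to 6. Klf1 and Gfi1b start from control levels that differ in opposite directions, 6.40 and 7.80 for Klf1 against 10.24 and 9.29 for Gfi1b.

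Whether the genes moved together was described from the deviations of the arrays from their group means, which leave out the irradiation difference itself. These correlations are over 12 arrays that share their sort, labelling and normalization, and are given without a test. Gata1 and Epor were most alike (r = 0.81). Of 22625 other probe sets, 43 were more like Gata1 than Epor was, and 168 were more like Epor than Gata1 was. Klf1 correlated with Epor at 0.59 and with Gata1 at 0.49. For that last pair control replicate 1 matters, because r was 0.28 among the 6 control arrays, 0.96 among the 6 irradiated arrays, and 0.89 over the other 11 arrays with group means removed.

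Gfi1b did not follow the other members. Its deviations correlated at -0.19 with Klf1, -0.17 with Gata1 and -0.24 with Epor. When the mean of each replicate set was removed too, these became 0.67, 0.31 and 0.29, so the sign of the relation depends on whether the difference between the sets is kept. Control replicate 1 was the lowest of its set for both Klf1 (5.04) and Gfi1b (9.77), which raises their r of 0.67. That value was not computed without this array. Without control replicate 2, r of Gfi1b with Gata1 was 0.09. The pairs without Gfi1b kept a positive sign with the set means removed, at 0.78 for Gata1 with Epor, 0.41 for Klf1 with Epor and 0.30 for Klf1 with Gata1.

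The named genes closest to each of the 4 were read from the same deviations from the group means. These keep the difference between the replicate sets, on which the sign for Gfi1b depends. A gene has a name here only through the authors' table of changed probe sets, so a change of at least 2-fold is fixed by that selection. Nearest to Epor was Abcb6, a porphyrin transporter gene (r = 0.96, with 0 of 22625 probe sets closer), followed by Tspo2, a translocator protein of erythroid cells, Myo1d, a myosin, and Pklr, the pyruvate kinase of red cells and liver. Nearest to Gata1 were Ctse, the protease cathepsin E (0.95), Rhd, of the Rh complex (0.83), C1qtnf12 (0.83), Reep6 (0.82) and Epor. Nearest to Klf1 were Pla2g12a, a phospholipase (0.94), Atp1b2, a sodium pump subunit (0.93), Epdr1 (0.90), 1110008P14Rik (0.88) and Ahsp, the chaperone of alpha-hemoglobin (0.87). All of these genes had higher means after irradiation, by 2.23-fold (1110008P14Rik) to 7.52-fold (Ahsp). Myo1d, at a log2 difference of 1.29, did not pass (limma adjusted p = 0.106).

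The named genes nearest to Gfi1b were lower after irradiation, while Gfi1b itself was higher. They were Cabyr, a calcium-binding protein (r = 0.88, 2.04-fold lower), Ebi3, a cytokine subunit (0.82, 2.10-fold lower) and Ldhb, lactate dehydrogenase B (0.81, 3.17-fold lower). Stxbp4 (0.80, 2.70-fold lower) and Vdr, the vitamin D receptor (0.79, 2.17-fold lower), followed. Of 22625 other probe sets, 10 were closer to Gfi1b than Cabyr was and 137 were closer than Vdr was. Over the whole table, 116 probe sets, only 3 of them named, had r of at least 0.8 with Gfi1b. Of the 116, 39 had higher and 77 lower means after irradiation. For Klf1 there were 380 such probe sets, 345 higher and 35 lower, for Epor 210, 177 higher and 33 lower, and for Gata1 57, 44 higher and 13 lower. The median log2 difference of the like probe sets was -0.11 for Gfi1b, 0.35 for Klf1, 0.32 for Epor and 0.22 for Gata1. Over all probe sets it was 0.01. These likenesses keep the difference between the replicate sets. The control arrays of replicates 4 to 6 were lower than those of 1 to 3 by a median of -0.55 for the probe sets like Gfi1b, and higher by 0.47, 0.36 and 0.38 for those like Klf1, Gata1 and Epor.

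Genes that GATA1 and KLF1 are known to turn on, and other genes of red cells, were read from a list of 45 red cell genes. The files name 19 of them, through the same table of changed probe sets, and the brightest named probe set stands for each. All 19 had higher means in the irradiated arrays, 16 of them past the limma threshold and 0 lower, beside 5.87% of all probe sets called higher, and their median log2 difference was 1.52 against 0.01 over all probe sets. The table admits changed probe sets only, and these genes were chosen with earlier results known, so these counts support nothing by themselves. Ank1, Ermap and Tfrc missed the threshold. The mean of the 19 genes ran from 6.85 to 7.89 in control arrays and from 7.95 to 9.45 in irradiated arrays, a separation that the selection of these genes makes likely.

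The deviations of this mean within the groups ran with those of 3 of the 4 genes. They correlated at 0.82 with Epor, 0.75 with Gata1 and 0.74 with Klf1, and each of the 19 genes had a positive r with each of these. With Gfi1b the correlation was -0.38, and 1 of the 19 genes, Hbb-b2, a beta-globin gene, had a positive r. With the means of the replicate sets removed these values were 0.71 for Epor, 0.72 for Gata1, 0.57 for Klf1 and 0.36 for Gfi1b, and 15 of the 19 genes had a positive r with Gfi1b. The red cell genes closest to the mean of the 4 were Blvrb, a biliverdin reductase (r = 0.84, 2.82-fold higher), Tspo2 (0.82, 2.87-fold), Rhd (0.82, 2.93-fold), Ahsp (0.80, 7.52-fold) and Aqp1, a water channel of red cells (0.80, 2.97-fold). After these came Tspan33, a tetraspanin (0.74, 2.39-fold), Ank1, the membrane anchor ankyrin (0.73, 2.86-fold, limma adjusted p = 0.0899), and the heme synthesis gene Alad (0.70, 2.17-fold). With Gfi1b alone, r of all these genes was negative, from -0.43 (Alad) to -0.02 (Tspan33).

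In the median difference between the control sets, the named red cell genes had the sign of Klf1, Epor and Gata1 and opposite to Gfi1b. The differences were 1.40, 0.69 and 0.40, none of them past the limma threshold, against -0.95 for Gfi1b. Of the 19, 17 had higher means in control replicates 4 to 6 than in 1 to 3. The median difference was 0.63, against -0.0084 over all probe sets. These genes were named through the table of changed probe sets and vary together within the groups, so nothing is read from the count of 17. In limma 3 passed, beside 5.14% of all probe sets called higher there, among them Ahsp (2.34, adjusted p = 0.0151) and Tfrc, the transferrin receptor (1.36, adjusted p = 0.0197). In control replicate 1, where Klf1 was lowest, the mean of the red cell genes was 6.85, next to 6.94 and 6.86 in control replicates 2 and 3.

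**Figure D3:**
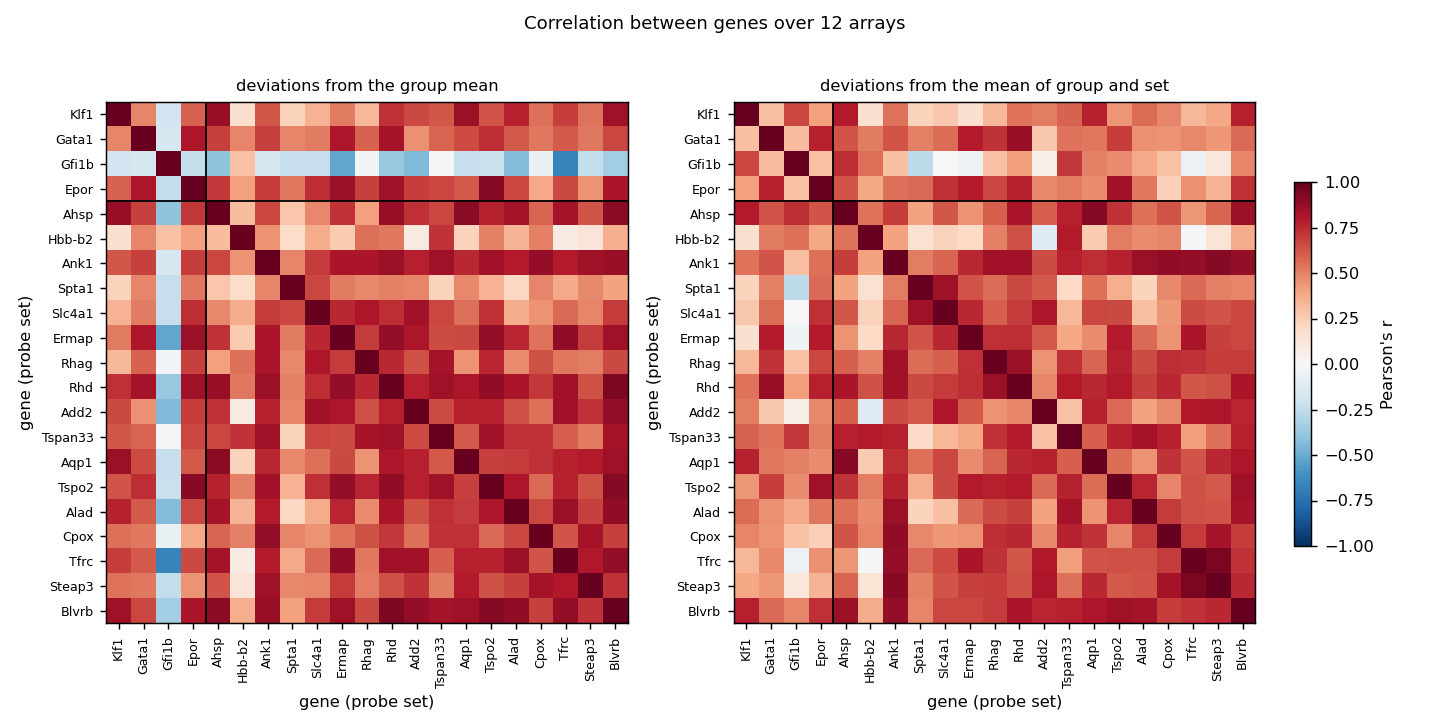
Pearson correlation over 12 arrays (colour, from -1 to 1) between the 4 genes and 17 of the named red cell genes, with deviations from the group mean on the left and from the mean of group and replicate set on the right. The Gfi1b row is negative on the left against the red cell genes drawn other than Hbb-b2, and its r with Klf1 goes from -0.19 on the left to 0.67 on the right. Both values include control replicate 1, where Klf1 was far below the other control arrays.

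**Figure D4:**
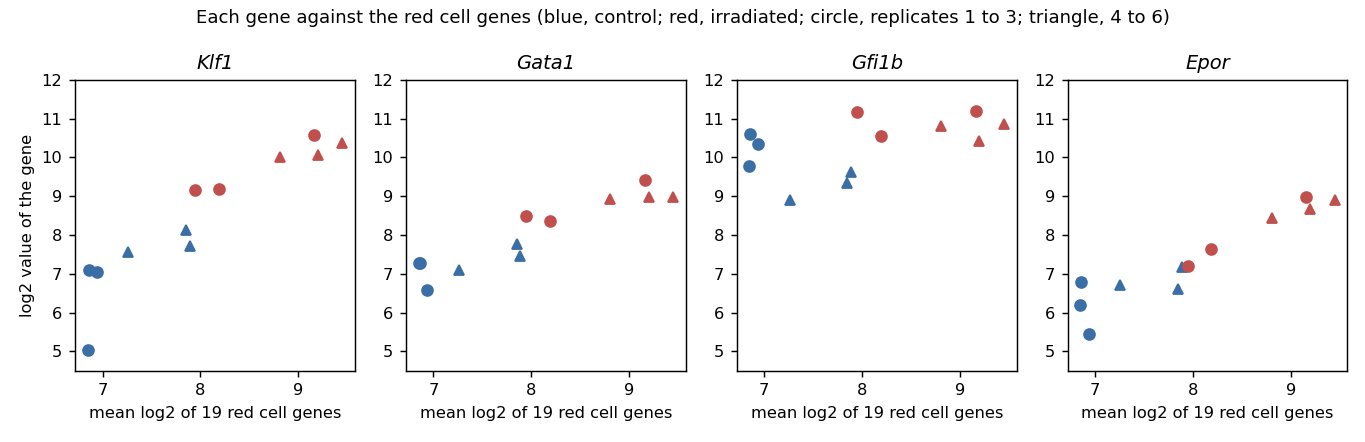
Log2 value of each gene (y axis) against the mean log2 value of the 19 named red cell genes (x axis) in each of 12 arrays. Klf1, Gata1 and Epor run upward along the x axis (within-group r of 0.74, 0.75 and 0.82), and the 3 highest Gfi1b values among control arrays lie at the lowest x values, from 6.85 to 6.94.

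Other genes of the pathway were named in few cases. Of 28 erythroid regulators, the partners and antagonists of GATA1, KLF1 and GFI1B, 0 were named in the files, which does not say whether they were measured or changed. Of 21 genes of erythropoietin receptor signalling, 2 were named, through the authors' table of changed probe sets. Their p-values between irradiated and control arrays test the difference that selected them, and nothing is read from these p-values. Socs2, a suppressor of cytokine signalling, was higher, going from 6.49 ± 0.30 to 8.42 ± 0.26 (SD, n = 6 each; 3.82-fold, limma adjusted p = 3.09e-05). Socs3, another member of that family, was lower, going from 9.44 ± 0.69 to 8.32 ± 0.34 (2.16-fold, limma adjusted p = 0.0250). Within the groups Socs3 correlated at -0.79 with Klf1 and at 0.48 with Gfi1b, and it too was lower in control replicates 4 to 6 than in 1 to 3 (by -1.21, limma adjusted p = 0.0106).

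GATA1 and GFI1B also act in other lineages, so markers of these were read beside the 4 genes. As with the red cell genes, a marker has a name here only through the authors' table of changed probe sets, and the counts of called markers are fixed by that selection and nothing is read from them beside the 5.87% of all probe sets called higher and 5.47% called lower. Of 12 mast cell and basophil markers 2 were named, and both were higher, Fcer1a, of the IgE receptor, 2.14-fold and Il1rl1, the IL-33 receptor, 2.02-fold. Il1rl1 correlated within the groups at 0.75 with Klf1, 0.57 with Gata1 and -0.07 with Gfi1b, and Fcer1a at 0.31, -0.17 and -0.27. Of 19 megakaryocyte markers 4 were named, and 2 were higher and 2 lower, with Selp (3.24-fold) and Vwf (2.20-fold) among the former and Plek (2.41-fold lower) among the latter. The 1 named of 16 granulocyte and monocyte markers, Ms4a3, was 3.53-fold higher over all arrays, but its change differed between the replicate sets (limma adjusted p = 0.00503), and its control level was 2.35 higher in replicates 4 to 6 than in 1 to 3 (limma adjusted p = 0.000256). Its r of 0.61 with Klf1 and -0.69 with Gfi1b includes that difference between the sets. All 5 named of 16 lymphoid markers were lower, by 2.08-fold (Ccr9) to 6.07-fold (Dntt), and their median r was -0.65 with Klf1 and with Epor, -0.60 with Gata1 and 0.12 with Gfi1b. The means of the named markers per array ran from 5.01 to 6.40 in control and 6.22 to 7.16 in irradiated arrays for mast cells and basophils, and from 8.65 to 9.10 and 8.63 to 9.20 for megakaryocytes. They ran from 8.62 to 9.40 in control and 6.86 to 8.01 in irradiated arrays for lymphoid cells. Their part in the changes of the 4 genes was not tested.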

How the data were processed

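Members and gene lists were chosen with earlier results of these data known. RNA of sorted KSL cells was labelled with biotin, per the labels' protocols. The log2 values, 1 per probe set, were deposited by the authors. The submitters' processing notes name Partek, with no version or role. How the arrays were background-corrected and normalized is not stated in the labels or files used here. A second deposited table by the authors gives an unadjusted p-value, a linear ratio, and F and sum-of-squares scores for 454 probe sets. It is the only source of gene names: 436 of its probe sets name 1 gene, and 425 of these matched a RefSeq gene table (GRCm38.p6), through which symbols were updated.

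Probe sets were fitted with limma 3.58.1 in R 4.3.3 (lmFit, eBayes), with irradiated against control arrays as the main fit, all 12 arrays and no filter, and Benjamini-Hochberg adjustment over 22626 probe sets, called under 0.05. A fit with 4 means (group by replicate set) gave the tests between replicates 1 to 3 and 4 to 6. Both were tested on simulated data. Likeness was Pearson's r of deviations from group means. The genes named are the 4 members, the 5 named probe sets most like each, named genes of the regulator and signalling lists, red cell genes by their r with the mean of the members, and up to 4 per marker list. The values of 3 listed genes are left out of the text, but they enter the counts of their lists and the mean of the red cell genes. No 2 arrays held identical values (smallest SD of a difference 0.28). Alternatives were array medians subtracted, quantile normalization, the dimmest 40% left out, a trended and robust prior, a replicate block, the replicate set as a term or alone, and each array left out.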

Additional observations from a re-analysis of the deposited data

Results flagged for a closer look

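Klf1 in control replicate 1 lay far below the other control arrays. Its log2 value of 5.04 was 2.01 below the next lowest control array, and this gap was 0.652 of the whole range of the 6 control values, above the critical value of Dixon's test. It was the only such value among the 8 groups of values examined (4 genes in 2 groups), and chance flags about 1 in 20 groups, so that 1 flag among 8 groups is not rare. In the same array Gata1 was 7.27 and Epor 6.19, both within the range of the other control arrays, and Gfi1b was 9.77.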

How the results depend on the processing

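The log2 differences of Klf1, Gata1, Gfi1b and Epor kept their sign and moved by less than the SD between replicates under all 20 alternatives, within 2.34 to 3.24, 1.48 to 1.72, 0.74 to 1.40 and 1.61 to 2.04. Calls over all probe sets moved more. With the replicate set as a term 2099 were higher, replicates 1 to 3 alone gave 539 higher and 601 lower, and replicates 4 to 6 alone gave 720 and 738. With array medians subtracted 1765 were higher and 1081 lower, against 1329 and 1238. Leaving out 1 array gave 740 to 1531 higher and 773 to 1303 lower probe sets, both lowest without irradiated replicate 1, and 837, 830 and 769 higher without control replicate 1 and irradiated replicate 5 and 6. The cause was not tested. Samples shared only a replicate number: with a replicate block 1451 were higher and 1350 lower, the differences of the 4 genes were as before, same-numbered arrays deviated with r of 0.011 to 0.286, and 2 of 6 control arrays were most like the irradiated array of their own number.

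The count of probe sets whose change differed between the replicate sets, 30, was 96 with a trended and robust prior and 4 to 129 with 1 array left out, and that between the control sets, 1900, was 695 to 2103. None of the 4 genes passed the former test in any alternative (limma adjusted p = 0.349 to 0.998). For Epor the difference was -0.0273 under quantile normalization and -0.33 to 0.57 with 1 array left out, and for Gata1 -0.40 to 0.13, so these have no settled sign. For Klf1 it was -1.25 to -0.21 and for Gfi1b 0.45 to 0.90. The lower Gfi1b level in control replicates 4 to 6 was -1.19 to -0.76 with 1 array left out, at adjusted p of 0.0249 to 0.151 over all alternatives.

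With the means of the replicate sets removed, r of Gfi1b was 0.67 with Klf1, 0.31 with Gata1 and 0.29 with Epor. Arrays were left out only with the group means alone removed, where these r were -0.19, -0.17 and -0.24 over all arrays. With 1 array left out, r of Gfi1b with Klf1 was then -0.32 to -0.09. With Gata1 it was -0.35 to 0.0908 (without control replicate 2), and with Epor -0.42 to -0.03.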
